A study of Homo sapiens with 9 samples.

Results

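The 3 libraries labelled hPRM1 were compared with the 3 empty vector libraries, 6 of the 9 RNA libraries of a study of protamine expression in somatic cells. All 9 libraries are labelled as HEK293T, a line derived from human embryonic kidney, and the other 3 as cells given hPRM2. The empty vector drove EGFP alone, and the hPRM1 and hPRM2 plasmids encoded the human protamine joined to EGFP. By the study's description, every group was transfected and cells with high EGFP signal were sorted 3 days later, and RNA was sequenced from the 3′ ends of polyadenylated transcripts. The labels number 3 replicates per group and do not say whether they were separate cultures, so the p-values measure the spread between these samples, which may be technical. The library numbers of the hPRM1 label come from another run of numbers than those of the other 6. The labels do not say whether these libraries were prepared as a separate set, which could not be told apart from condition. Levels are reads per kilobase of gene and per 1000000 reads (RPKM). Genes were tested where 3 or more of the 6 libraries had 1 RPKM or more, which left 13588 of 57338 genes.

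Protamines are small arginine-rich proteins that replace histones in the sperm nucleus, and somatic cells normally make none. No PRM1 signal was recorded (0 RPKM) in any of the 6 libraries, the hPRM1 label included. PRM2 was also at 0 in these 6, whereas the hPRM2 libraries held it at 71224, 60050 and 36130 RPKM, so a protamine transcript could be counted in this table. Whether the hPRM1 plasmid holds a 3′ end that would be assigned to PRM1 was not tested. The absent PRM1 signal, and the blood transcripts and missing HEK293T transcripts given with the gene lists, go against the label of these 3 libraries. Which cells these libraries came from was not tested, and no fold change given here can be read as a response of HEK293T cells to PRM1. Higher and lower mean only that the libraries with this label differed from the empty vector libraries. The other 9 genes of the testis and protamine list, PRM3, TNP1, TNP2 and ODF1 among them, were at 0 in the 6 libraries too.

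Blood holds cell types that can be recognised by a few transcripts. Red cells carry haemoglobin and lose their nucleus, and their last stage to hold RNA is the reticulocyte. Neutrophils and monocytes carry the calcium-binding S100A8 and S100A9 proteins, lymphocytes carry antigen receptor subunits and granzymes, and platelets carry chemokines inherited from megakaryocytes. HEK293T cells have no such programme and instead express embryonic kidney and neuronal genes together with a strong proliferation programme. The check of each label against such genes came out differently for the groups. The empty vector libraries held HEK293T genes and little of the globin and most leukocyte lists, and the libraries labelled hPRM1 held blood genes and hardly any HEK293T genes. Other red cell lists were divided less cleanly. Reticulocyte genes summed to between 849 and 864 RPKM in the empty vector libraries and between 1453 and 1798 under the hPRM1 label.

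Haemoglobin took most of the signal of the libraries labelled hPRM1. Its genes made up 88.2%, 85.7% and 88.2% of the summed RPKM of protein-coding genes in replicates 1, 2 and 3, against at most 0.00229% in the empty vector libraries. The 10 highest protein-coding genes held between 87.5% and 89.8% of that sum under the hPRM1 label and between 19.7% and 21% in the empty vector libraries. RPKM is relative to the total, so a large share for haemoglobin leaves a smaller share for every other gene by construction. The median log2 fold change over all tested genes was -1.72 as deposited. Dividing each library by its median ratio to the geometric mean of the 6, over genes above 0 in all of them, brought that median to -0.12. As deposited, 1750 genes (12.9% of those tested) were called higher under the hPRM1 label and 8491 (62.5%) lower. After this median-of-ratios rescaling, 3926 (28.9%) were higher and 3945 (29%) lower. A call needed an adjusted p of at most 0.05 in limma and a 2-fold change, and both scalings are given side by side. Of the genes called lower as deposited, 3945 were also lower after rescaling, 54 were higher and the rest were not called. All 1750 called higher as deposited were also higher after rescaling. Groups that did not overlap as deposited were common over the tested genes that could be named. Of those called higher after rescaling, 1911 lay wholly higher under the hPRM1 label, 395 wholly lower, and 1551 overlapped. All 3934 called lower lay wholly lower, as did 4663 that were not called, and 1031 that were not called overlapped. Groups that stand apart are therefore no special trait of the genes named below. Counts of list members below are to be read against the shares of all tested genes. These were 12.9% higher and 62.5% lower as deposited, and 28.9% and 29% after rescaling.

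**Figure D1:**
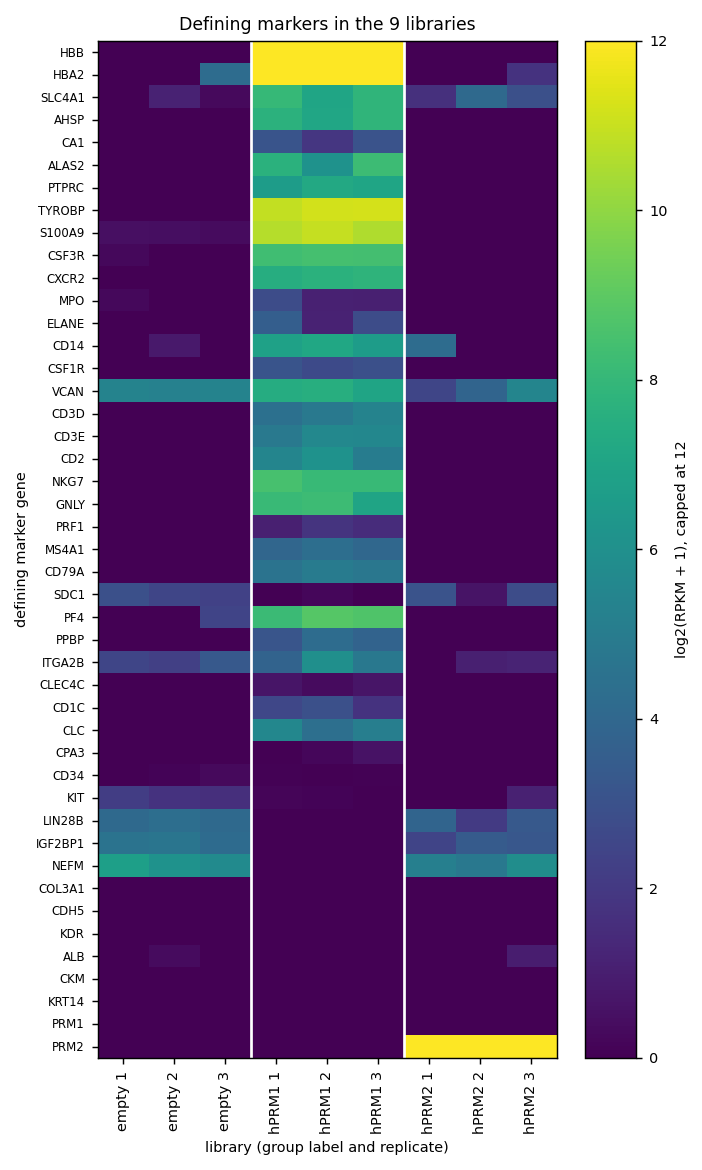
Level of the defining marker genes named in the text (rows) in each of the 9 libraries (columns), as log2(RPKM + 1), with values above 12 drawn at 12 and white lines between the groups. Most markers of red cells, leukocytes, lymphocytes and platelets are dark in the empty vector and hPRM2 libraries and bright under the hPRM1 label, the HEK293T genes LIN28B, IGF2BP1 and NEFM show the opposite, and PRM2 is bright in the hPRM2 libraries alone.

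The DNA around the start sites of 4 genes is given as an example of a control region for each kind of transcript, and it stands for no other gene. ALAS2 was chosen for red cells, S100A9 for neutrophils and monocytes, TYROBP for leukocytes and CKB for HEK293T cells. Each window is from RefSeq on GRCh38.p14, runs from 250 bases before to 50 bases after the start site in the direction of transcription, and has the start site at base 251. Capitals mark the letters of the motifs searched.
ALAS2, chrX:55030928-55031227, minus strand: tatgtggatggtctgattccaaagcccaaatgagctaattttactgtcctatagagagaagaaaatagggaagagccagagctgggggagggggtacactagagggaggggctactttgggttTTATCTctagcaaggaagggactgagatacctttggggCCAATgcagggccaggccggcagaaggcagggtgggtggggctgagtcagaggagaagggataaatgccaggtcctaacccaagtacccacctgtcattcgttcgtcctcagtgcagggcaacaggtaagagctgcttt
S100A9, chr1:153357604-153357903, plus strand: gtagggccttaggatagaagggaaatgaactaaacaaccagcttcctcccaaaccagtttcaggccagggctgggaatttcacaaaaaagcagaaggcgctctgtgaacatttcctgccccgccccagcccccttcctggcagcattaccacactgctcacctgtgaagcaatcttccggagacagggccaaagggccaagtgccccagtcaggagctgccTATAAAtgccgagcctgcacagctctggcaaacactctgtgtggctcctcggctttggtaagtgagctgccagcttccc
TYROBP, chr19:35908246-35908545, minus strand: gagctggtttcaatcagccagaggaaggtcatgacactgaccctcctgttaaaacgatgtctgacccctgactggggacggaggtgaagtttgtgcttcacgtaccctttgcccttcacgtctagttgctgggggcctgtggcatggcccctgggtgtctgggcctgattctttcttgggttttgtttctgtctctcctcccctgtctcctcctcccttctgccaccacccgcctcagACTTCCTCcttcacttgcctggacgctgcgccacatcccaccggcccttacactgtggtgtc
CKB, chr14:103522781-103523080, minus strand: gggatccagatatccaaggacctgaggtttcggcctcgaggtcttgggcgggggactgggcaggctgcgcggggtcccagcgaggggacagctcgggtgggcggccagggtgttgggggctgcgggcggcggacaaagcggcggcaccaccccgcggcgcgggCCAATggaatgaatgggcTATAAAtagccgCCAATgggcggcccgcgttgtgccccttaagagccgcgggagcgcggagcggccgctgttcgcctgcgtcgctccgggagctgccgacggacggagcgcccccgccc
The ALAS2 window held a match for the GATA factors (AGATAA or TGATAA, on its other strand as TTATCT) at bases 124 to 129 and a CCAAT box at bases 162 to 166. The S100A9 window held a TATA box (TATAAA or CATAAA) at bases 222 to 227. In the TYROBP window, the ETS box of the myeloid factor PU.1 (GAGGAAGT, on its other strand as ACTTCCTC) stood at bases 239 to 246. The CKB window held CCAAT boxes at bases 164 to 168 and 194 to 198 and a TATA box at bases 182 to 187. Both strands were searched, no motif overlapped another, and among all 27305 RefSeq windows of this length 16.6% held the GATA letters, 2.54% the PU.1 letters, 35.7% a CCAAT box, 20.3% a TATA box and 3.22% the KLF1 box CCACACCC, which none of the 4 held. These are matches of letters and not sites of binding.

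HBB and the alpha globin genes were the highest tested genes of the libraries labelled hPRM1. HBB, the beta chain of adult haemoglobin, was at 892449, 798019 and 765727 RPKM in replicates 1, 2 and 3 and was listed at 0 in all 3 empty vector libraries. HBA2, an alpha chain gene, was at 1223530, 1146420 and 1295700 RPKM against 0, 0 and 18.0. HBA1, the other alpha chain gene, was at 149742, 115466 and 173073 RPKM against 3.09, 5.72 and 0. The groups lay far apart for each of these genes. HBA1 and HBA2 are near-identical, so the division of reads between them is uncertain. HBM, an alpha-like globin gene, was at 1041, 855 and 725 RPKM against 0 in all 3 empty vector libraries. HBQ1, another alpha-like gene, was closest between the groups, at 48.9, 54.0 and 35.5 RPKM against 26.5, 9.81 and 6.81, and its groups did not overlap either. HBD, the minor adult beta-like chain, was at 0, 0 and 0.786 RPKM and was not tested. Of the 6 haemoglobin genes 5 were tested, and all 5 were called higher under both scalings. Among the 6, 3 were at 0 in all 3 empty vector libraries and could be tested only through the hPRM1 label. As deposited, the summed level of the 6 genes differed by a factor of 1.1 between the highest and the lowest library of the hPRM1 label.

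Genes of the red cell membrane and its skeleton were detected unevenly. SLC4A1, the band 3 anion exchanger, was at 263, 131 and 230 RPKM under the hPRM1 label and at 0, 1.19 and 0.245 in the empty vector libraries. Its log2 fold change was 8.48 (SE 0.39) after rescaling. It could be tested only through the hPRM1 label, so no p-value is given. GYPC, glycophorin C, was at 699, 516 and 478 RPKM against 39.2, 38.3 and 55.0. DMTN, the actin-bundling dematin, was at 74.0, 46.1 and 44.2 RPKM against 2.19, 0.0508 and 1.61. For these genes the groups stood clearly apart. EPB41, protein 4.1, was at 25.5, 32.8 and 30.2 RPKM against 26.8, 30.0 and 25.6, so its groups overlapped as deposited. Of the 14 genes of this list 7 were tested, with 4 called higher and 1 lower as deposited and 6 higher and 0 lower after rescaling. The shares of all tested genes were 12.9% higher and 62.5% lower as deposited, and 28.9% and 29% after rescaling.

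Transcripts known from maturing reticulocytes were a larger group. AHSP, the chaperone of free alpha globin, was at 208, 135 and 228 RPKM and at 0 in all 3 empty vector libraries. CA1, a carbonic anhydrase of mature red cells, was at 7.79, 2.73 and 7.28 RPKM, also against 0. BNIP3L, which directs the clearance of mitochondria in reticulocytes, was at 193, 175 and 141 RPKM against 39.3, 37.0 and 40.6. Each library of the hPRM1 label exceeded each empty vector library for all of these. FAM210B, a mitochondrial protein induced in erythroid maturation, was at 299, 269 and 222 RPKM against 29.8, 35.3 and 38, a log2 fold change of 5.04 (SE 0.21, limma adjusted p = 5.43e-06) after rescaling. Of 28 reticulocyte genes 27 were tested, with 14 higher and 8 lower as deposited (median log2 fold change 1.21) and 19 higher and 1 lower after rescaling (median 3.10). The gene that stayed lower was CA2, another carbonic anhydrase, named after its values were seen, with a mean of 0.939 RPKM against 174 in the empty vector libraries. For all tested genes the shares were 12.9% higher and 62.5% lower as deposited, and 28.9% and 29% after rescaling.

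Some genes of haem synthesis and iron import were far higher under the hPRM1 label, while the list as a whole was near the share of all tested genes. ALAS2, the erythroid form of the first enzyme of haem synthesis, was at 205, 68.5 and 297 RPKM against 0 in the empty vector libraries. SLC25A37, the mitochondrial iron importer mitoferrin 1, was at 2663, 2556 and 2039 RPKM against 17.3, 13 and 25.2. The related carrier SLC25A39 was at 778, 483 and 531 RPKM against 122, 108 and 236. The groups of these 3 genes did not overlap. TFRC, the transferrin receptor that developing erythroid cells use to take up iron, went the other way as deposited, at 1.73, 0.342 and 4.30 RPKM against 15.7, 22.5 and 32.6, and was not called after rescaling (log2 fold change -1.38, SE 0.69, limma adjusted p = 0.116), although it was called lower without replicate 3 of the hPRM1 label (-2.05). Of 14 genes 13 were tested, with 3 higher and 8 lower as deposited and 4 higher and 3 lower after rescaling. The share lower as deposited was close to the 62.5% of all tested genes, and the shares after rescaling were near 28.9% and 29%. The median log2 fold change of this list was -2.25 as deposited and -0.49 after rescaling, and it was 0.26 when totals were taken without haemoglobin, so the list as a whole has no stable direction.

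Erythroid and megakaryocyte transcription factors were also detected. NFE2, a factor that acts at the globin locus control region, was at 62.3, 74.2 and 63.3 RPKM against 0, 0.0831 and 0. TAL1, a basic helix-loop-helix factor of early blood development, was at 45.0, 72.6 and 29.4 RPKM against 0.115, 0.506 and 1.29. LYL1, its close relative, was at 61.1, 59.7 and 53.2 RPKM against 0. All 3 genes separated the groups. GATA1 and KLF1, the leading erythroid factors, reached means of 5.03 and 5.89 RPKM and were called higher (both named after their values were seen). Of 10 genes 9 were tested, with 6 higher and 0 lower as deposited and 9 higher after rescaling. Among the 10, 4 were at 0 in all 3 empty vector libraries and could be tested only through the hPRM1 label.

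**Figure D2:**
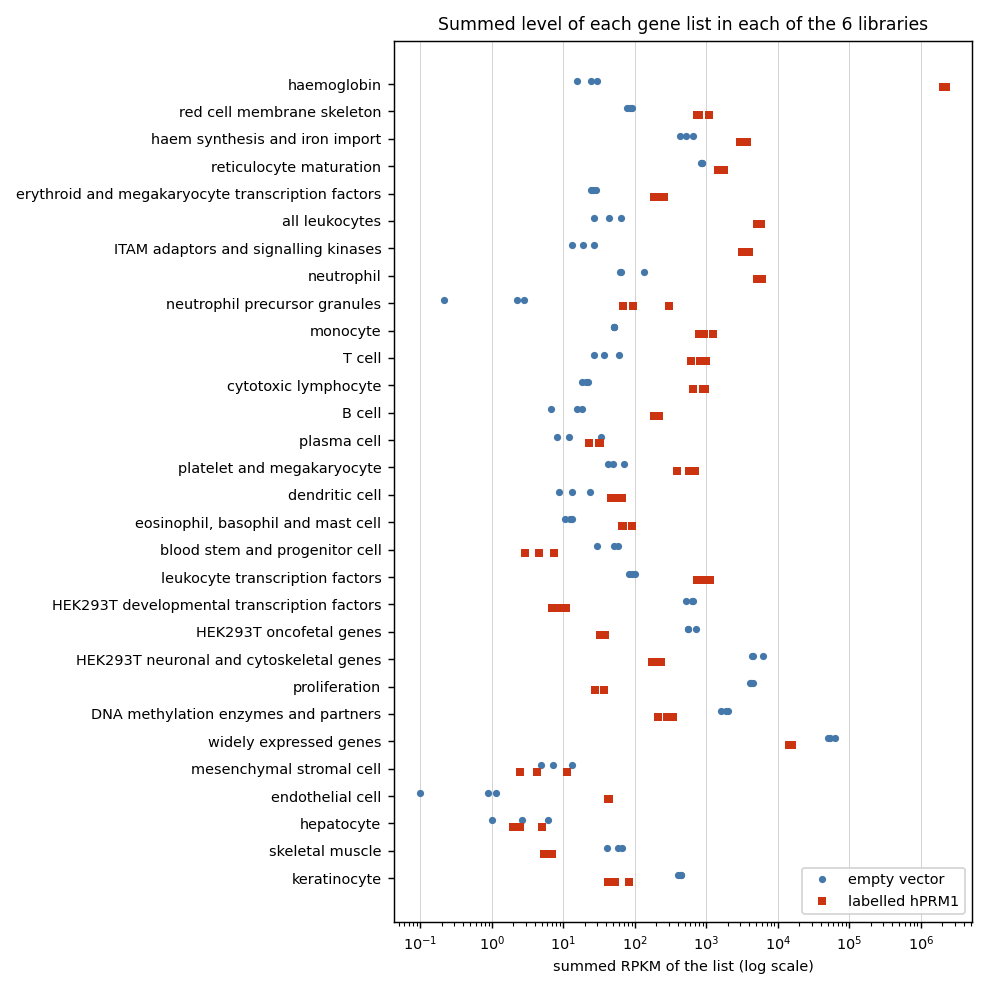
Summed RPKM of the members of each gene list other than testis and protamine (log scale) in each of the 3 empty vector libraries (circles) and the 3 libraries labelled hPRM1 (squares). Haemoglobin reaches at least 2060810 RPKM under the hPRM1 label, every leukocyte list other than plasma cells lies to the right of its empty vector values, and the HEK293T and proliferation lists lie to the left.

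Genes shared by all leukocytes were high under the hPRM1 label and nearly absent from the empty vector libraries. PTPRC, the leukocyte common antigen CD45, was at 96.8, 149 and 130 RPKM against 0.0280, 0 and 0. ITGB2, the integrin chain of leukocyte adhesion, was at 1367, 1397 and 1096 RPKM against 0, 0.811 and 0. CD74, the invariant chain of antigen presentation, was at 897, 977 and 798 RPKM against 0. The lowest library of the hPRM1 label was far above the highest empty vector library for each of them. All 20 genes of the list were tested, of which 19 were higher as deposited and 20 after rescaling, with medians of 7.01 and 8.32 on the log2 scale. Their summed level was 5202, 5890.4 and 5238 RPKM, a factor of 1.13 between the libraries. Among the 20 genes, 6 were at 0 in all 3 empty vector libraries and could be tested only through the hPRM1 label.

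Adaptors and kinases of immune receptors with ITAM motifs, the phosphorylated signalling motif of antigen and Fc receptors, followed the same pattern. TYROBP, the adaptor DAP12 of natural killer and myeloid receptors, was at 1913, 2349 and 2421 RPKM and at 0 in all 3 empty vector libraries. It could be tested only through the hPRM1 label, so no p-value is given. FCER1G, the common gamma chain of Fc receptors, was at 296, 420 and 315 RPKM against 0. FCGR2A, a low-affinity receptor for antibody, was at 141, 218 and 182 RPKM against 0.0583, 0.433 and 0. As deposited, replicate 1 was the lowest of the hPRM1 label for these 3 genes and still far above every empty vector library. All 18 genes were called higher under both scalings. However, 9 of them were at 0 in all 3 empty vector libraries and could be tested only through the hPRM1 label.

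Neutrophil genes gave the highest summed level of any leukocyte type. S100A9, a calcium-binding protein that neutrophils hold in large amounts, was at 1617, 1989 and 1503 RPKM against 0.386, 0.358 and 0.284. Its log2 fold change was 11.60 (SE 0.15) after rescaling. It could be tested only through the hPRM1 label, so no p-value is given. CSF3R, the receptor for granulocyte colony-stimulating factor, was at 324, 351 and 340 RPKM against 0.186, 0 and 0. CXCR2, a receptor for interleukin-8, was at 177, 201 and 222 RPKM against 0. These receptors were even across the libraries of the hPRM1 label. MNDA, a nuclear antigen of myeloid cells, was at 495, 629 and 420 RPKM against 0. All 25 genes were tested, 12 of them only through the hPRM1 label, since they were at 0 in all 3 empty vector libraries. Under both scalings 24 were higher. The exception was G0S2, an inhibitor of lipolysis named after its values were seen, which was lower as deposited, with a mean of 2.28 RPKM against 40.7, and was not called after rescaling. The summed level was 5286.9, 6099.5 and 5203.8 RPKM against at most 133.9 in the empty vector libraries.

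Granule genes that neutrophils transcribe only as precursors in the marrow were low and varied between the libraries. MPO, myeloperoxidase, was at 5.93, 1.12 and 1.10 RPKM, and ELANE, neutrophil elastase, at 11.0, 1.22 and 5.90. The defensin gene DEFA4 was at 98.1, 5.82 and 20.9 RPKM, a factor of 16.8 between the libraries. CAMP, the cathelicidin precursor, was at 57.9, 21.6 and 24.7 RPKM and LCN2, lipocalin 2, at 53.4, 17.0 and 28.5. Replicate 1 was the highest for all 5 genes. MPO was called higher as deposited (log2 fold change 1.56) but not without empty vector replicate 2 or 3 (1.51 for each) or hPRM1 replicate 1 (0.98). Of 14 genes 9 were tested and 8 were higher under both scalings, and 11 of the 14 were at 0 in all 3 empty vector libraries. Genes at 0 there could be tested only through the hPRM1 label. As deposited, their summed level was 300.3, 68.9 and 95.2 RPKM, a factor of 4.36, which was the widest of the blood lists drawn, whereas mature neutrophil genes differed by a factor of 1.17 between the same libraries.

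Monocyte genes were present at a lower level. CD14, the co-receptor for bacterial lipopolysaccharide, was at 117, 143 and 99.6 RPKM against 0, 0.753 and 0. LYZ, lysozyme, was at 385, 622 and 321 RPKM and FCN1, ficolin 1, at 103, 106 and 98.0 RPKM, both against 0 in all 3 empty vector libraries. These genes had no overlap between the groups. CSF1R, the receptor for macrophage colony-stimulating factor, was at 7.57, 5.44 and 6.59 RPKM against 0. VCAN, the matrix proteoglycan versican, was also made by the empty vector cells, at 40.7, 38 and 39.8 RPKM, and was at 174, 182 and 130 under the hPRM1 label (log2 fold change 1.99 as deposited and 4.13 after rescaling, SE 0.19 and 0.18). Of 16 monocyte genes 13 were higher as deposited and 16 after rescaling. Among these genes, 9 were at 0 in all 3 empty vector libraries and could be tested only through the hPRM1 label. Dendritic cell genes were near the limit of detection. Of 11 such genes, 9 were at 0 in all 3 empty vector libraries and could be tested only through the hPRM1 label. CD1C, a lipid-presenting molecule of conventional dendritic cells, was at 4.91, 6.61 and 2.42 RPKM, CLEC4C, a receptor of plasmacytoid dendritic cells, at 0.584, 0.271 and 0.627, and 7 of the 11 genes were tested, with 6 higher under both scalings.

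Lymphocyte genes were detected for T, cytotoxic and B cells. For T cells, the receptor subunit CD3D was at 20.7, 27.6 and 40.2 RPKM, CD3E at 27.7, 48.3 and 45.7 RPKM and the adhesion molecule CD2 at 42.5, 68.3 and 32.1 RPKM, all against 0 in the empty vector libraries. CD247, the zeta chain of the receptor, was the highest of the T cell list at 151, 218 and 219 RPKM. Of 22 T cell genes 20 were tested, with 19 higher as deposited and 20 after rescaling. Among the 22, 14 were at 0 in all 3 empty vector libraries and could be tested only through the hPRM1 label. NKG7, a granule protein of cytotoxic lymphocytes, was at 365, 268 and 273 RPKM and GNLY, the antimicrobial granulysin, at 278, 295 and 126 RPKM, against 0. PRF1, perforin, was much lower, at 1.07, 2.5 and 1.87 RPKM. Of 20 cytotoxic genes 19 were tested, with 17 higher as deposited and 18 after rescaling, and the lower one under both was NCAM1, a neural adhesion molecule also known as CD56, named after its values were seen, with a mean of 0.532 RPKM against 15.4. Among the 20, 12 were at 0 in all 3 empty vector libraries and could be tested only through the hPRM1 label. For B cells, MS4A1, the surface antigen CD20, was at 14.8, 19.0 and 15.2 RPKM and the receptor subunit CD79A at 23, 30.4 and 26.2 RPKM, both against 0. All 14 of the 16 B cell genes that were tested were higher under both scalings. Of the 16, 12 were at 0 in all 3 empty vector libraries and could be tested only through the hPRM1 label. Of 8 plasma cell genes 6 were tested, with 3 higher and 1 lower as deposited and 4 higher and 1 lower after rescaling. Shares over all tested genes were 12.9% and 62.5% as deposited, and 28.9% and 29% after rescaling. SDC1, syndecan 1, was lower under the hPRM1 label, at 0, 0.164 and 0 RPKM against 6.53, 4.64 and 3.97, whereas JCHAIN, the joining chain of secreted antibody, was at 2.58, 3.20 and 5.15 RPKM against 0.

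Platelet and granulocyte genes completed the blood lists. PF4, platelet factor 4, was at 290, 460 and 416 RPKM against 0, 0 and 4.45, and PPBP, a chemokine precursor of platelet granules, at 8.07, 17.9 and 13.2 RPKM against 0. ITGA2B, the platelet fibrinogen receptor chain, was at 13.1, 62.4 and 27.3 RPKM against 4.72, 3.85 and 9.05. As deposited, replicate 2 was the highest and replicate 1 the lowest of the hPRM1 label for all 3 genes, whereas PF4 was highest in replicate 3 after rescaling (675, 851 and 940). Of 20 platelet and megakaryocyte genes 13 were tested, with 10 higher as deposited and 12 after rescaling. Among the 20, 11 were at 0 in all 3 empty vector libraries and could be tested only through the hPRM1 label. CLC, the Charcot-Leyden crystal protein of eosinophils and basophils, was at 46.1, 19.7 and 34.3 RPKM against 0, and CCR3, the eotaxin receptor, at 16.4, 10.5 and 11.1 RPKM against 0. The mast cell protease CPA3 reached at most 0.495 RPKM. Of 14 eosinophil, basophil and mast cell genes 5 were tested, with 4 higher under both scalings. Of the 14, 10 were at 0 in all 3 empty vector libraries and could be tested only through the hPRM1 label.

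Transcription factors that leukocytes rely on were higher as well. BCL6, a repressor of germinal centre B cells that neutrophils also express, was at 173, 488 and 347 RPKM against 0.521, 3.5 and 0.0883. CEBPD, a factor of myeloid maturation, was at 86.3, 89.7 and 99.9 RPKM against 3.08, 4.49 and 2.36, and IRF1, an interferon-responsive factor, at 109, 133 and 139 RPKM against 10.5, 10.5 and 9.55. No library of the hPRM1 label overlapped an empty vector library for these genes, as for 1911 of the genes called higher after rescaling. Of 20 genes 19 were tested, with 14 higher and 1 lower as deposited and 18 higher and 0 lower after rescaling.

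Few genes of blood stem and progenitor cells could be tested, and none of those was called higher. CD34, their surface antigen, was at 0.0427, 0 and 0.0479 RPKM under the hPRM1 label and at 0, 0.0731 and 0.244 in the empty vector libraries. KIT, the stem cell factor receptor, was at 0.138, 0.0962 and 0 RPKM against 3.60, 2.37 and 2.09, called lower as deposited and not after rescaling (log2 fold change -0.95), where it was called lower only without hPRM1 replicate 1 (-1.15) or 2 (-1.03). Of 12 genes 4 were tested, with 0 higher and 4 lower as deposited and 0 higher and 1 lower after rescaling. Over all tested genes 12.9% were higher and 62.5% lower as deposited, and 28.9% and 29% after rescaling. Counts among 4 genes are too few to set against these shares. Defining markers of several other tissues were at 0 in all 3 libraries labelled hPRM1, among them the liver product ALB, the muscle enzyme CKM, the endothelial genes CDH5 and KDR, the collagen COL3A1 and the keratin KRT14. Over whole lists this held less often, since 2 of 9 endothelial, 3 of 8 keratinocyte, 6 of 10 muscle, 8 of 12 mesenchymal and 9 of 12 hepatocyte genes were at 0 in all 3. The endothelial list summed to between 42 and 43.8 RPKM, against at most 1.16 in the empty vector libraries. Most of this was PLVAP, a protein of fenestrated endothelium, at 39.4, 38.9 and 38 RPKM against 0. The epidermal keratin KRT1 was at 9.84, 10.03 and 33.8 RPKM against 0.

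**Figure D3:**
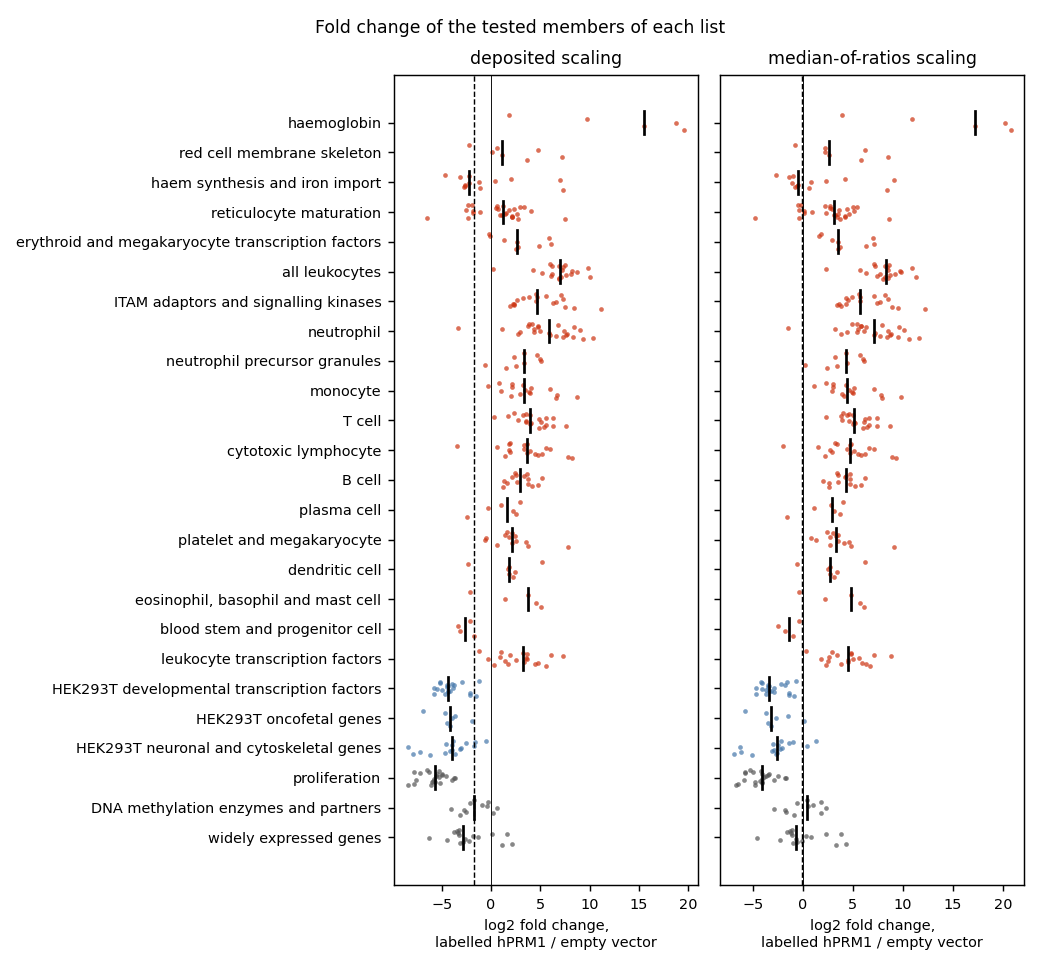
Log2 fold change (hPRM1 label against empty vector) of each tested gene (dots) of each list under the deposited scaling (left) and after median-of-ratios rescaling (right), with a bar at the list median, a solid line at 0 and a dashed line at the median of tested genes (-1.72 and -0.12). Lists of other tissues, which had few or no tested genes, are not drawn. Medians of leukocyte lists lie to the right of both lines and those of HEK293T and proliferation lists to the left under both scalings, while haem synthesis genes fall on both sides.

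Genes that mark HEK293T cells were absent or very low under the hPRM1 label. Of 24 developmental transcription factors of this line, 17 were at 0 in all 3 libraries labelled hPRM1 and 1 in all 3 empty vector libraries. HOXC9, which specifies position along the body axis, was at 55.7, 69.1 and 42.6 RPKM in the empty vector libraries against 0. SOX4, a factor of embryonic progenitors, remained detectable, at 3.93, 7.67 and 5.5 RPKM against 97.3, 86.7 and 86.3 (log2 fold change -1.76, SE 0.22, limma adjusted p = 4.77e-04 after rescaling). Of the 24, 21 were tested, and none was higher. As deposited 21 were lower and 19 after rescaling, against 62.5% and 29% of all tested genes. Their summed level was 7, 10.8 and 9.03 RPKM, against 621.9, 662.8 and 512.6 in the empty vector libraries and between 596 and 795 in the hPRM2 libraries. Divided by the size factors, the mean under the hPRM1 label was 6.76% of that of the empty vector. In bulk RNA, fewer cells of a type and less RNA per cell cannot be told apart, so this percentage is a share of signal only.

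Oncofetal and neuronal genes of the line gave the same picture. LIN28B, which blocks the maturation of let-7 microRNAs, was at 16.4, 19.4 and 15.9 RPKM in the empty vector libraries and at 0 under the hPRM1 label. The RNA-binding protein gene IGF2BP1, at 22.5, 24.4 and 17.3 RPKM, and the chromatin protein gene HMGA2, at 24.0, 23.1 and 29.1 RPKM, were likewise at 0 under the hPRM1 label. GAL, the neuropeptide galanin, was at 113, 126 and 120 RPKM against 0. Each of these 4 genes was detected in every empty vector library. NEFM, the medium neurofilament chain, was at 108, 67.8 and 51.9 RPKM, and UCHL1, a ubiquitin hydrolase of neurons, at 244, 247 and 263 RPKM, both against 0. CKB, the brain form of creatine kinase, had the highest level of the list, at 2915, 2871 and 4609 RPKM against 9.13, 6.97 and 10.7 (log2 fold change -6.32, SE 0.32, limma adjusted p = 1.07e-05 after rescaling). VIM, the intermediate filament vimentin, which leukocytes also express, was at 159, 207 and 145 RPKM against 598, 549 and 595, and was lower as deposited (log2 fold change -1.78, SE 0.18) but not called after rescaling (0.40, SE 0.15). Against 62.5% and 29% of all tested genes, 7 of the 7 oncofetal genes tested were lower as deposited and 6 after rescaling. For the 17 neuronal and cytoskeletal genes tested, 16 and 14 were lower. These low levels stood in the same libraries as the blood transcripts, whose part in them was not tested.

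Proliferation genes were lower together. TOP2A, the topoisomerase that untangles replicated chromosomes, was at 725, 627 and 990 RPKM in the empty vector libraries and at 1.02, 1.60 and 0.973 under the hPRM1 label. UBE2C, the ubiquitin carrier of the anaphase-promoting complex, was at 929, 996 and 1217 RPKM against 3.09, 4.31 and 3.39. CDK1, the kinase that starts mitosis, was at 414, 318 and 143 RPKM against 0, 0 and 0.702. The groups did not overlap for these genes, as for all 3934 genes counted above as called lower after rescaling. All 23 tested members of the 24 were lower under both scalings, against 62.5% and 29% of all tested genes. Their medians were -5.69 and -4.12 on the log2 scale. Their summed level after rescaling was 3.28% of that of the empty vector libraries.

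Genes that most cells express gave different counts under the scalings. EEF2, a translation elongation factor, was at 7045, 8034 and 7363 RPKM under the hPRM1 label and at 36080, 32478 and 41216 in the empty vector libraries, lower as deposited (log2 fold change -2.29, SE 0.13) and -0.10 (SE 0.16) after rescaling. The glycolytic enzyme gene GAPDH, at 191, 326 and 211 RPKM against 2030, 1941 and 2526, and TPT1, which encodes a translationally controlled protein, at 459, 432 and 447 RPKM against 4166, 4298 and 4854, were lower under both scalings. After rescaling, GAPDH lost its call without empty vector replicate 3 (-0.94), hPRM1 replicate 1 (-0.87) or hPRM1 replicate 3 (-0.91), and TPT1 (-1.12) without hPRM1 replicate 2 (-0.96). Of 17 tested genes of this list 3 were higher and 13 lower as deposited, and 4 higher and 8 lower after rescaling. Over all tested genes the shares were 12.9% and 62.5% as deposited, and 28.9% and 29% after rescaling. The list medians were -2.81 and -0.69, and 0.01 when totals were taken without haemoglobin. Genes of DNA methylation and its removal were called about as often as all tested genes. DNMT1, the maintenance methyltransferase, was at 149, 233 and 191 RPKM against 1795, 1650 and 1492 and was lower as deposited and not called after rescaling (log2 fold change -0.94, SE 0.16), where it was called lower without empty vector replicate 3 (-1.05). TET1, a dioxygenase that oxidises 5-methylcytosine, was at 0.0566, 0.105 and 0.0635 RPKM against 18.9, 18.8 and 12.7 and was lower under both. Of the 11 genes, 6 were lower and 0 higher as deposited, and 3 were lower and 3 higher after rescaling, against 62.5% lower as deposited and 29% lower and 28.9% higher after rescaling over all tested genes.

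**Figure D4:**
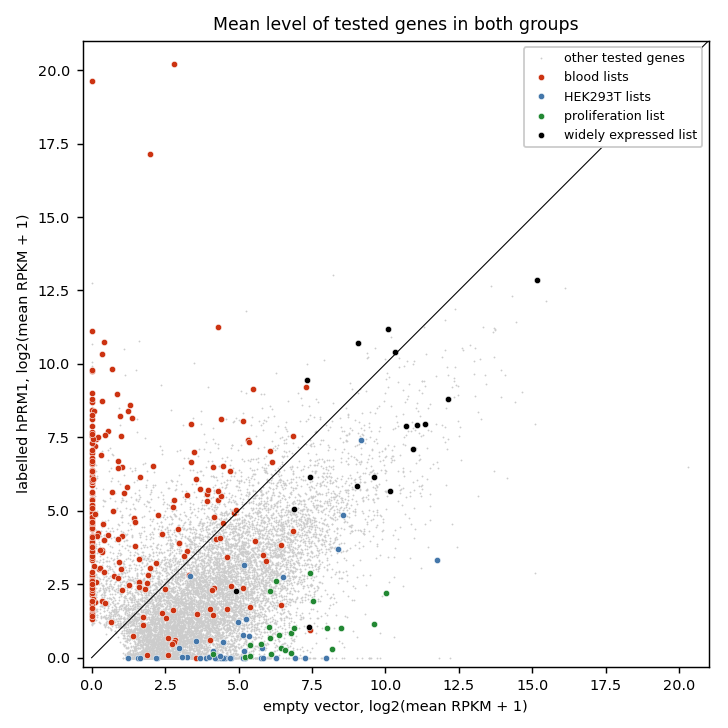
Mean level of each tested gene in the empty vector libraries (x axis) and in the libraries labelled hPRM1 (y axis), as log2(mean RPKM + 1), with the line of equal level. Many blood genes gather at the left edge at 0 in the empty vector libraries, HEK293T and proliferation genes along the bottom, and haemoglobin genes at the top, with HBB at 818732 and 0.

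Presence and absence over the whole table showed the same division. In all, 733 genes had at least 1 RPKM in all 3 libraries labelled hPRM1 and 0 in all 3 empty vector libraries, and 861 genes had the reverse. Of the 1231 genes with at least 100 RPKM in all 3 empty vector libraries, 24 were at 0 in all 3 libraries labelled hPRM1. Of the 407 genes with at least 100 RPKM in all 3 libraries labelled hPRM1, 45 were at 0 in all 3 empty vector libraries. Both groups shared 220 genes at this level. The largest positive fold changes after rescaling among genes outside the lists included LTB, the lymphotoxin beta of lymphocytes, at 1499, 2190 and 1622 RPKM against 6.20, 0 and 0, ACAP1, an Arf GTPase-activating protein, at 1229, 1693 and 1417 RPKM against 0, 3.38 and 0, and S100A6, a calcium-binding protein, at 1074, 1024 and 815 RPKM against 0. Among the largest negative ones were APLP1, a relative of the amyloid precursor protein, at 219, 216 and 302 RPKM against 0 under the hPRM1 label, and PRC1, a protein of the central spindle, at 612, 503 and 440 RPKM against 0.368, 1.01 and 0.481. A value of 0 stands for at most 3 estimated reads, which is between 0.278 and 0.378 reads per 1000000 in the empty vector libraries and between 0.512 and 0.713 under the hPRM1 label, and covers counting error only. The estimated reads on genes were between 4210000 and 5860000 for the hPRM1 label and between 7930000 and 10790000 for the empty vector. The size factors differed further, between 0.430 and 0.541 against 2.03 to 2.23. Haemoglobin left a smaller share of reads for other genes, and its part in the size factors was not tested. A low gene was therefore harder to detect under the hPRM1 label than the read totals alone show, and a 0 there says less than a 0 in the empty vector.

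The 3 libraries labelled hPRM1 resembled each other as closely as the empty vector libraries did. Over the tested genes, Pearson's r of log2(RPKM + 1) was between 0.937 and 0.945 within the hPRM1 label, between 0.910 and 0.931 within the empty vector, and between 0.363 and 0.390 across the groups. Libraries of a group may share preparation, which the labels do not state, and depth differed between the groups. Red cell membrane, haem synthesis and reticulocyte lists were highest in replicate 1 and platelet and monocyte lists in replicate 2, under both scalings. The T cell list was highest in replicate 2 as deposited and in replicate 3 after rescaling. As deposited, ALAS2 differed by a factor of 4.34 and ITGA2B by a factor of 4.77 between the libraries of the hPRM1 label, while CSF3R and FCN1 differed by a factor of 1.08. With 1 value per library, these differences between replicates were not tested.

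**Figure D5:**
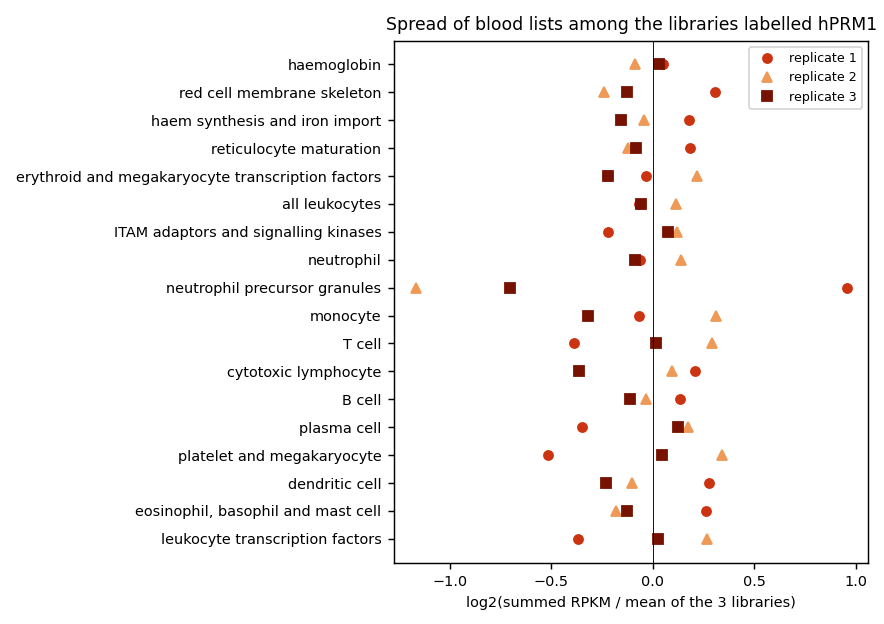
Summed RPKM, as deposited, of each blood list in each of the 3 libraries labelled hPRM1, as log2 of its ratio to the mean of the 3. The list of blood stem and progenitor cells, which was low in these libraries, is not drawn. Most lists stay within a narrow band around 0, and the neutrophil precursor granule list is spread widest, with replicate 1 the highest.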

How the data were processed

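The table covers 9 libraries labelled as HEK293T RNA, made with a 3′ mRNA kit and sequenced on an Illumina NovaSeq. The 3 libraries labelled hPRM1 and the 3 of the empty vector were used here. The authors trimmed reads with Cutadapt, used STAR and Salmon within nf-core/rnaseq (versions not given in the sources used here, build hg38 per the labels), removed mitochondrial genes, and deposited RPKM values, which are counts divided by the total per library and by gene length, in a single table of 57338 genes. Division by length lowers long genes in a 3′ assay, so levels are compared between genes only as RPKM, and a library dominated by a few transcripts lowers all others. Symbols were found for 98.6% of the identifiers, and 0 columns of samples were left unused. Reads per library were estimated from the smallest steps of the values, assuming GENCODE 29 lengths less 250 bases.

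Tests were run with limma 3.58.1 in R 4.3.3 (lmFit, and eBayes with trend and robust) on log2(RPKM + 1) of genes with at least 1 RPKM in at least 3 of the 6 libraries, with Benjamini-Hochberg adjustment over 13588 genes, as deposited and after median-of-ratios rescaling. Size factors were 2.15, 2.23 and 2.03 for the empty vector and 0.430, 0.541 and 0.442 for the hPRM1 label. A fold change is on the log2(RPKM + 1) scale, which understates low genes, and none is given against a group at 0. In a self-test with known changes in 200 of 13588 genes, 75% of the genes changed 4-fold, 94% of those changed 8-fold and 0.0672% of the unchanged genes were called. The changed genes were drawn from well-expressed genes of lower spread, rose and fell equally often, and had normal noise. The data hold far more called genes and many at 0 in a group, so these rates do not carry over to the calls given here. Replicate numbers did not pair the samples, since the deviations of same-numbered libraries correlated by -0.01, 0.04 and -0.03. Tables were made with numpy 2.4.6 and pandas 2.3.3 under Python 3.11.15, and figures with matplotlib 3.10.9.

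The comparison and the gene lists were chosen with earlier results of these data known, so the lists are described by counts and medians without a test. Genes named were PRM1, PRM2, HBB, S100A9 and TYROBP, the defining markers of each list, up to 4 further members of each list with the highest mean in the group where it was looked for, the 10 largest positive and the 10 largest negative fold changes after rescaling among protein-coding genes whose groups did not overlap, and the 5 list members that varied most between libraries. Others are said to have been chosen after their values were seen. Genes that could describe a person were not named (2198 genes, 103 of them tested). A few further genes of the lists are not reported here by name. The effect of pseudocounts, filters, scalings, tests and left-out libraries is given in the closing section.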

Additional observations from a re-analysis of the deposited data

How the results depend on the processing

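The number of genes called depended on the scaling more than on any library. As deposited, genes called higher numbered 1152 with a pseudocount of 5, 867 with a filter of 10 RPKM, 3475 after quantile normalization, 5170 with totals taken without haemoglobin, 791 with a Welch test on RPKM and 3926 after median-of-ratios rescaling, against 1750. Genes called lower numbered 4970 with the filter of 10 RPKM, 4388 after quantile normalization, 2614 with totals without haemoglobin, 3723 with the Welch test and 3945 after rescaling, against 8491. After rescaling, the filter of 10 RPKM gave 1933 higher and 2590 lower and a pseudocount of 5 gave 2240 lower, against 3926 and 3945. The share of calls that were lower was 82.9% as deposited, 55.8% after quantile normalization, 33.6% with totals without haemoglobin, 50.1% after rescaling and 35.4% when the ratio was taken over widely expressed genes (5021 higher and 2751 lower). Leaving out each library in turn gave 1633 to 1824 higher and 8148 to 8610 lower as deposited, and 3647 to 3893 and 3734 to 3869 after rescaling. A replicate block gave 1783 higher and 8551 lower as deposited, and 3929 and 3974 after rescaling, and the numbers share no pairing.

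Of the genes named above, VIM and EEF2 changed sign. VIM, lower as deposited, had log2 fold changes of 0.12 after quantile normalization, 1.17 with totals without haemoglobin and 0.40 after rescaling. EEF2, also lower as deposited, had 0.67 with totals without haemoglobin, and its rescaled value became 0.23 in a fit of all 9 libraries and 0.59 with the ratio over widely expressed genes. Across all settings for the named genes, 68 of the deposited fold changes and 16 of the rescaled ones lost their call, most of the former under the Welch test. These scalings change the reference that all genes are scaled to.

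List medians moved with the pseudocount, since many members were at 0 in a group: the neutrophil median after rescaling was 9.62 with a pseudocount of 0.1 and 5.14 with 5, and that of HEK293T developmental transcription factors -6.03 and -1.53. The medians of haem synthesis, widely expressed and DNA methylation genes changed sign between scalings, the last from -1.74 as deposited to 0.39 after rescaling. The other blood, HEK293T and proliferation lists named above kept the sign of their median under every scaling run. Depth limits genes near 1 RPKM most. The 3 libraries against 3 carry library numbers from separate runs of numbers, which leaves no estimate of a batch effect.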

Other observations

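Some markers of other tissues did not follow the blood or HEK293T lists. The giant muscle protein gene TTN was at 2.91, 5.20 and 4.26 RPKM in the libraries labelled hPRM1 and at 0 in all 3 empty vector libraries, whereas TNNT1, the troponin T of slow muscle, was at 2.49, 1.65 and 1.12 RPKM against 40.3, 53.5 and 63.2 (log2 fold change -2.45, SE 0.33, limma adjusted p = 6.75e-04 after rescaling). CLDN5, a tight junction protein of endothelium, was at 1.97, 1.69 and 3.57 RPKM against 0. Of the 9 endothelial genes 3 were tested, with 2 higher as deposited and 3 after rescaling. The keratin KRT10 was at 32.3, 41.4 and 48.3 RPKM against 394, 440 and 449, lower under both scalings, while its epidermal partner KRT1 was higher.

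Among the largest negative fold changes after rescaling were RPL22L1, a paralogue of a ribosomal protein gene, at 0.739, 1.10 and 0 RPKM under the hPRM1 label against 1243, 1114 and 1380, and CKS2, a subunit of cell cycle kinases, at 1.88, 0 and 0.527 RPKM against 957, 865 and 851. DNAH14, an axonemal dynein heavy chain gene, was at 0 in all 3 libraries labelled hPRM1 and at 218, 186 and 259 RPKM in the empty vector libraries.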
